A study of Mus musculus with 6 samples.

Results

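The genes described here are those whose symbols name DNA repair and damage checkpoint proteins in a table of gene expression from mouse lung tumours. They were chosen by symbol alone, with stems such as Fanc, Rad, Xrcc, Ercc, Msh, Mlh, Parp, Neil and Apex and single genes such as Atm, Atr, Xpa and Ogg1. The first 60 rows of the table were left out of the choice, and 0 of them carry such a symbol. The choice gave 65 of the 10191 genes in the table, and all 65 are protein coding. No expression value entered it.

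One group was kept in SD cages for 20 hours daily, between 14:00 and 10:00, over 7 weeks that followed a virus injection (SD, 3 libraries). The other group passed those hours in home cages (Ctrl, 3 libraries). The series title speaks of sleep deficiency, and no label says what SD stands for. Both groups carried the same genotype according to the design text. The genotype labels differ by a number from sample to sample, and the 6 samples were treated as 1 genotype. The virus, the age and the sex of the mice and the hour of tissue collection are not given in the sources used here. Lights were on from 8:00 to 8:00 pm in both groups. The titles call the libraries biological replicates and do not say whether each is a mouse of its own, so that a p-value here reflects only how far these 6 samples spread, some of which may be technical.

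DNA repair is a set of pathways, each with its own sensors and nucleases. Base excision repair removes small base lesions, nucleotide excision repair removes bulky ones, and mismatch repair corrects errors left by replication. Double-strand breaks are joined end to end or copied from the sister chromatid by homologous recombination, which works mostly in dividing cells. The kinases ATM and ATR report breaks and stalled replication to the cell cycle through CHK2 and CHK1.

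Levels are given as CPM, the reads of a gene scaled so that every library has the same total, and fold changes are ratios of mean CPM, SD over Ctrl. Library totals were 6511192 to 6968966 reads in SD and 7021019 to 7417095 reads in Ctrl, so that 3 reads equalled 0.404 to 0.461 CPM. Such a floor covers counting error only. A gene was tested when it had at least 1 CPM in at least 3 libraries, with limma on log2(CPM + 1), and it was called when its p, adjusted over all tested genes by the Benjamini-Hochberg method, was under 0.05. Of the 65 repair genes 64 were tested. Parp14 was the exception, with 0.15, 0.57 and 1.94 CPM in SD and 0.83, 0.81 and 1.28 CPM in Ctrl.

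Of the 64 tested repair genes, 21 changed (32.8%), 9 of them higher and 12 lower in SD. Over all 10004 tested genes, 56.6% were called, 28.1% higher and 28.5% lower. The libraries of the groups did not overlap for 24 repair genes (37.5%), against 60.3% of all tested genes. The median log2 fold change of the repair genes was -0.13, with a range of -1.60 to 0.85, beside a median of -0.01 over all tested genes. Most repair genes were expressed at a low level, with a median of 7.35 CPM against 22.2 CPM over all tested genes. Calls were rarer among low genes in the whole table. Of the repair genes with a mean under 5 CPM, 3 of 23 were called (13%), against 32.3% of all tested genes at that level. Between 5 and 20 CPM 9 of 24 were called (37.5%), against 51.0%, and at 20 CPM or more 9 of 17 (52.9%), against 69.0%. These shares are descriptions, and no test was made of the repair genes as a set.

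**Figure D1:**
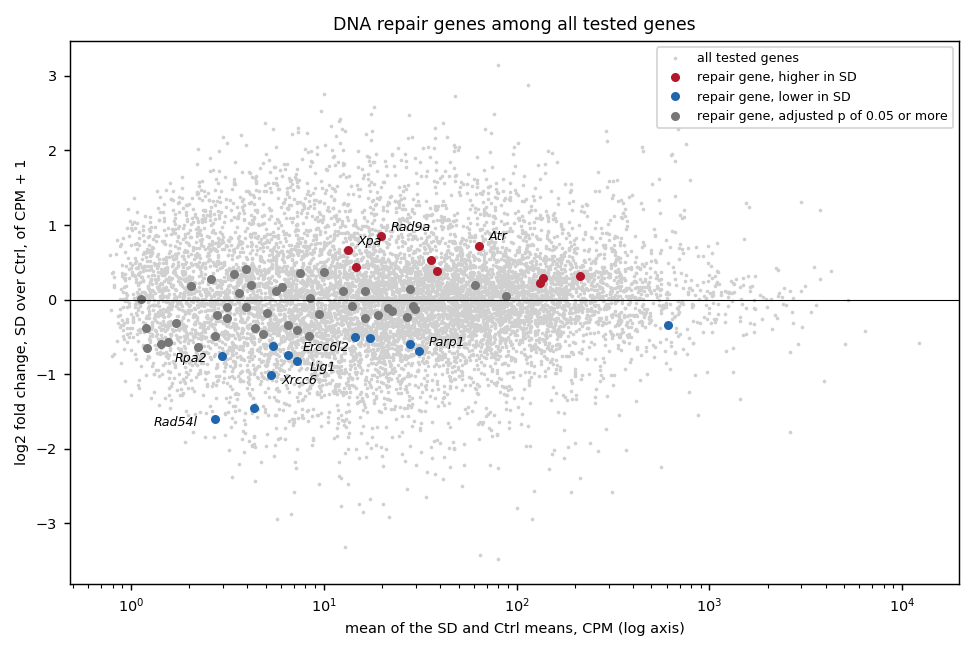
Each point is a tested gene, placed by its mean level in CPM (log axis) and its log2 fold change, SD over Ctrl, on the scale of CPM + 1; repair genes are coloured by their call. The 64 repair genes lie between -1.60 and 0.85, and all 3 called repair genes with a mean under 5 CPM, Rad54l and Rpa2 among them, were lower in SD.

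Per kilobase of exon, Ddb1 stood at the top in both groups, with 84.0 CPM per kb in SD and 106 CPM per kb in Ctrl. It encodes an adaptor of CUL4 ubiquitin ligases that also takes part in recognising ultraviolet damage. Next in SD came Rad23b with 41.2 CPM per kb (33.0 in Ctrl), then Rad21 with 35.7 (29.2 in Ctrl). This order of Rad23b and Rad21 after Ddb1 holds for SD only. The lowest levels in SD were those of Fancm, 0.0725 CPM per kb in SD and 0.159 in Ctrl, Parp14, 0.0956 and 0.105, and Rad54l, 0.115 and 0.593. The median repair gene had 1.64 CPM per kb in Ctrl.

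Of 8 genes of break sensing and homologous recombination, 2 were called, both lower (25%, against 28.5% of all tested genes), and 6 were not. The repair gene with the lowest log2 fold change was one of them, Rad54l, a DNA translocase that assists strand exchange, which fell 5.14-fold. It had 0.31, 0.72 and 1.64 CPM in SD and 3.31, 4.99 and 5.41 CPM in Ctrl (log2 fold change -1.60 ± 0.31, SE, limma adjusted p = 2.9e-05). All SD libraries lay below all Ctrl libraries, on 2, 5 and 11 reads in SD and 24, 37 and 38 reads in Ctrl, so its size in SD is known only roughly. Rad54l lies on chromosome 4 (116094264 to 116123690) of mm10, and 15.4% of its exon bases overlap Lrrc41 on the other strand.

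The other 6 genes of break sensing and homologous recombination were not called (limma adjusted p = 0.14 to 0.70). They included Mre11a, Rad50 and Nbn, the complex that first binds broken ends, with log2 fold changes of -0.31, -0.20 and -0.57. The recombinase paralogs Rad51b and Rad51d had log2 fold changes of 0.34 and 0.35, and Rad52, a mediator of strand annealing, 0.12. Brca1, Brca2, Rad51c, Rad54b, Xrcc2 and Xrcc3 have no row under these symbols among the 10191 genes, so they could not be analysed here.

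All 4 genes of the symbol rule grouped here as end joining had negative log2 fold changes. Of these 3 fell, the Ku subunits Xrcc6 and Xrcc5 and Parp3 (75%, against 28.5% of all tested genes). Prkdc, the kinase that works with Ku and lies outside the rule, had a log2 fold change of 0.01 (limma adjusted p = 0.97). Xrcc6 encodes Ku70 and Xrcc5 Ku80, which together form the ring that caps a broken end. Xrcc6 had 4.91, 2.15 and 2.54 CPM in SD and 5.11, 9.98 and 6.98 CPM in Ctrl, a 2.30-fold fall (log2 fold change -1.01 ± 0.27, SE, limma adjusted p = 0.0018). Xrcc5 had 13.5, 15.8 and 12.9 CPM in SD and 18.6, 24.8 and 18.7 CPM in Ctrl, a 1.47-fold fall (log2 fold change -0.52 ± 0.16, SE, limma adjusted p = 0.0065). For both subunits all SD libraries were below all Ctrl libraries, with SD replicate 1 at 4.91 close to Ctrl replicate 1 at 5.11 for Xrcc6. The call of Xrcc5 was lost without Ctrl replicate 2, its highest library (limma adjusted p = 0.076). Parp3, an ADP-ribosyltransferase linked to end joining, had 11.1, 11.3 and 12.9 CPM in SD and 17.8, 17.7 and 15.8 CPM in Ctrl (1.45-fold lower, limma adjusted p = 0.011). Xrcc4, the scaffold of the ligase step, was at 2.52 ± 0.360 CPM in SD and 3.08 ± 0.71 CPM in Ctrl (SD, n = 3 each) and was not called (limma adjusted p = 0.56).

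In base excision and single-strand break repair the paired sensors PARP1 and PARP2 went in opposite directions. Both enzymes attach chains of ADP-ribose at strand breaks. Parp1 (chromosome 1, 180568924 to 180601254) had 22.7, 26.5 and 21.8 CPM in SD and 39.1, 40.3 and 36.9 CPM in Ctrl, a 1.64-fold fall (log2 fold change -0.69 ± 0.12, SE, limma adjusted p = 7.8e-06). Parp2 (chromosome 14, 50807841 to 50821301) had 42.4, 40.8 and 44.7 CPM in SD and 29.9, 28.3 and 29.3 CPM in Ctrl, a 1.46-fold rise (log2 fold change 0.53 ± 0.11, SE, limma adjusted p = 9.8e-05). Neither gene's groups overlapped. The ratio of Parp1 to Parp2 CPM was 0.536, 0.651 and 0.488 in SD and 1.30, 1.42 and 1.26 in Ctrl, so its order was turned round in all 3 SD libraries (exact two-sided permutation p = 0.10, the smallest that 3 libraries a side allow; p = 0.11 adjusted over 8 such ratios). Because both genes separated the groups in opposite directions, the unadjusted p could take no other value. The 8 pairs were also chosen after the values were seen, which the adjustment does not cover.

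Their promoters, 250 bases before to 50 bases after the RefSeq transcript start on GRCm38.p6, are shown because the genes moved apart, with those of both Ku subunits, which fell together. Capitals mark matches to the motifs searched on both strands, the E-box CACGTG, which clock factors and MYC can bind, the E2F motif, spelled TTTCCCGC, TTTGGCGC, TTTCGCGC or TTTGCCGC, the cell cycle homology region TTTGAA and the D-box TTATGTAA. Parp1 is shown at chr1:180568641-180568940, Parp2 at chr14:50807666-50807965, Xrcc5 at chr1:72307171-72307470 and Xrcc6 at chr15:82016119-82016418, all on the plus strand.
Parp1: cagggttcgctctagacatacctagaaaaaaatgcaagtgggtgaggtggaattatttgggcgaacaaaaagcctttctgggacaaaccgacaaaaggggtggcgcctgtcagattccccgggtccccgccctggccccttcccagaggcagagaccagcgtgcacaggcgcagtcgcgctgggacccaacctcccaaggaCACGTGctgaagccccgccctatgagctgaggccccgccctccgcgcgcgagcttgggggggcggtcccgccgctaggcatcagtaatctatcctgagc
Parp2: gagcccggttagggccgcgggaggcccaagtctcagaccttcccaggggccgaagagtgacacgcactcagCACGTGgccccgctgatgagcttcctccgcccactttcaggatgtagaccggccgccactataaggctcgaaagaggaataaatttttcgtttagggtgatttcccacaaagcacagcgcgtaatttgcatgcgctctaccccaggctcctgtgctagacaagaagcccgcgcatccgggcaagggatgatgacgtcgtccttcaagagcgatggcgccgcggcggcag
Xrcc5: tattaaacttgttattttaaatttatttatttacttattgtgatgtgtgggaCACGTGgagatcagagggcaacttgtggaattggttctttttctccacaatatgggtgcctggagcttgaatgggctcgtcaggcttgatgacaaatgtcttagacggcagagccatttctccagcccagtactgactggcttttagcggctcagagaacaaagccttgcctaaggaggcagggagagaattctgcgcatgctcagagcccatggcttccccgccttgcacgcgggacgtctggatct
Xrcc6: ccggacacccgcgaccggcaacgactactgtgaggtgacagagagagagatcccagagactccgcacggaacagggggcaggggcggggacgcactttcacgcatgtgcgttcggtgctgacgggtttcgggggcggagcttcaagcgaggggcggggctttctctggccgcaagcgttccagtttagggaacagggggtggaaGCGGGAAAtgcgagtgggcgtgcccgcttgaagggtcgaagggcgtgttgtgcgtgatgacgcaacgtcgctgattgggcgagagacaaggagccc

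Parp1 and Parp2 each hold 1 E-box, although they changed in opposite directions, and neither holds an E2F motif. Of the Ku genes, Xrcc5 holds an E-box and Xrcc6 an E2F motif. RefSeq promoters were matched by symbol for 49 of the 65 repair genes, with 56 promoters in all. An E-box stood in 11 of the 56 (19.6%), against 10.0% of 10283 promoters of tested genes and 7.15% of all 32851 promoters. An E2F motif stood in 6 of the 56 (10.7%), those of Fancg, Chek2, Lig1, Msh3, Xrcc6 and Msh6, against 3.85% of promoters of tested genes and 2.26% of all promoters. Only Lig1 and Xrcc6 among these 6 were called. The cell cycle homology region stood in 2 of the 56 (3.57%), against 11.2% of promoters of tested genes and 17.9% of all, and the D-box in 0 of the 56, against 0.554% and 0.938%. A match is a run of letters and not a shown binding site.

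Lig1, the ligase that seals replication fragments and long excision patches, also fell. It had 3.69, 6.31 and 4.78 CPM in SD and 11.2, 6.61 and 10.7 CPM in Ctrl, with no overlap but with Ctrl replicate 2 close to SD replicate 2 (1.93-fold lower, log2 fold change -0.82 ± 0.24, SE, limma adjusted p = 0.0038). The other 7 genes of this group were not called, and their log2 fold changes ran from -0.47 for Tdg, a thymine glycosylase, to 0.12 for Xrcc1, the scaffold of single-strand break repair. Ogg1, which removes oxidised guanine, was at 28.3 ± 3.53 CPM in SD and 30.7 ± 1.80 CPM in Ctrl, and Apex1, the main abasic site endonuclease, at 21.4 ± 3.20 and 23.7 ± 2.75 CPM (SD, n = 3 each; limma adjusted p = 0.42 and 0.41). Of the exon bases of Apex1, 61.7% overlap Pip4p1 on the other strand, and no strand setting is given, so reads from the overlap cannot be told apart.

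Nucleotide excision repair genes were called in both directions, with a median log2 fold change of 0.20. Of 12, 4 were higher (33.3%, against 28.1% of all tested genes) and 2 lower (16.7%, against 28.5%). Xpa, the scaffold that verifies damage, rose 1.62-fold, with 17.4, 15.6 and 16.7 CPM in SD and 8.14, 12.5 and 9.97 CPM in Ctrl (log2 fold change 0.67 ± 0.18, SE, limma adjusted p = 0.0021). Ercc1, which with ERCC4 forms the nuclease that cuts 5′ of the lesion, had 13.7, 18.4 and 18.8 CPM in SD and 14.1, 10.7 and 11.96 CPM in Ctrl (1.39-fold higher, limma adjusted p = 0.034). SD replicate 1 of Ercc1 lay below Ctrl replicate 1, and the call was lost without any one of SD replicate 2, SD replicate 3, Ctrl replicate 2 and Ctrl replicate 3 (limma adjusted p = 0.11, 0.13, 0.13 and 0.079). Its partner Ercc4 was at 0.954 ± 0.555 CPM in SD and 1.89 ± 0.461 CPM in Ctrl (SD, n = 3 each), and was not called (limma adjusted p = 0.11).

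The helicases of TFIIH, the complex that opens DNA around a lesion and at promoters, went opposite ways. Ercc3, which encodes XPB, had 24.0, 19.2 and 23.2 CPM in SD and 27.7, 37.6 and 36.5 CPM in Ctrl (1.53-fold lower, log2 fold change -0.59 ± 0.14, SE, limma adjusted p = 0.00032). Ercc2, which encodes XPD, had 43.3, 42.6 and 45.7 CPM in SD and 31.2, 33.0 and 36.5 CPM in Ctrl (1.31-fold higher, log2 fold change 0.38 ± 0.11, SE, limma adjusted p = 0.0030). The ratio of Ercc3 to Ercc2 was 0.553, 0.451 and 0.507 in SD and 0.889, 1.14 and 1 in Ctrl, without overlap (exact two-sided permutation p = 0.10, the smallest possible; p = 0.11 adjusted over the 8 ratios). Both genes separated the groups in opposite directions, which fixed this unadjusted p in advance. Of the exon bases of Ercc2, 24.6% overlap Gm26852 on the other strand.

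Among the damage recognition genes, Rad23b, the partner of XPC, rose 1.25-fold, with 233, 238 and 238 CPM in SD and 183, 189 and 197 CPM in Ctrl (limma adjusted p = 6.9e-06). Xpc itself had 6.45, 3.44 and 4.03 CPM in SD and 2.90, 4.31 and 2.42 CPM in Ctrl and was not called (limma adjusted p = 0.20). Ddb1 fell 1.26-fold, with 552, 533 and 531 CPM in SD and 678, 670 and 693 CPM in Ctrl (log2 fold change -0.34 ± 0.04, SE, limma adjusted p = 1.2e-08). Ddb2, the lesion-binding partner of DDB1, had 11.4, 12.1 and 10.6 CPM in SD and 8.42, 7.68 and 9.69 CPM in Ctrl. All SD libraries of Ddb2 were higher than all Ctrl libraries, but it was not called (limma adjusted p = 0.11). Of the exon bases of Ddb2, 23.8% overlap Acp2 on the other strand. The transcription-coupled repair genes Ercc6 and Ercc8 were not called, with log2 fold changes of -0.19 and 0.08.

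**Figure D2:**
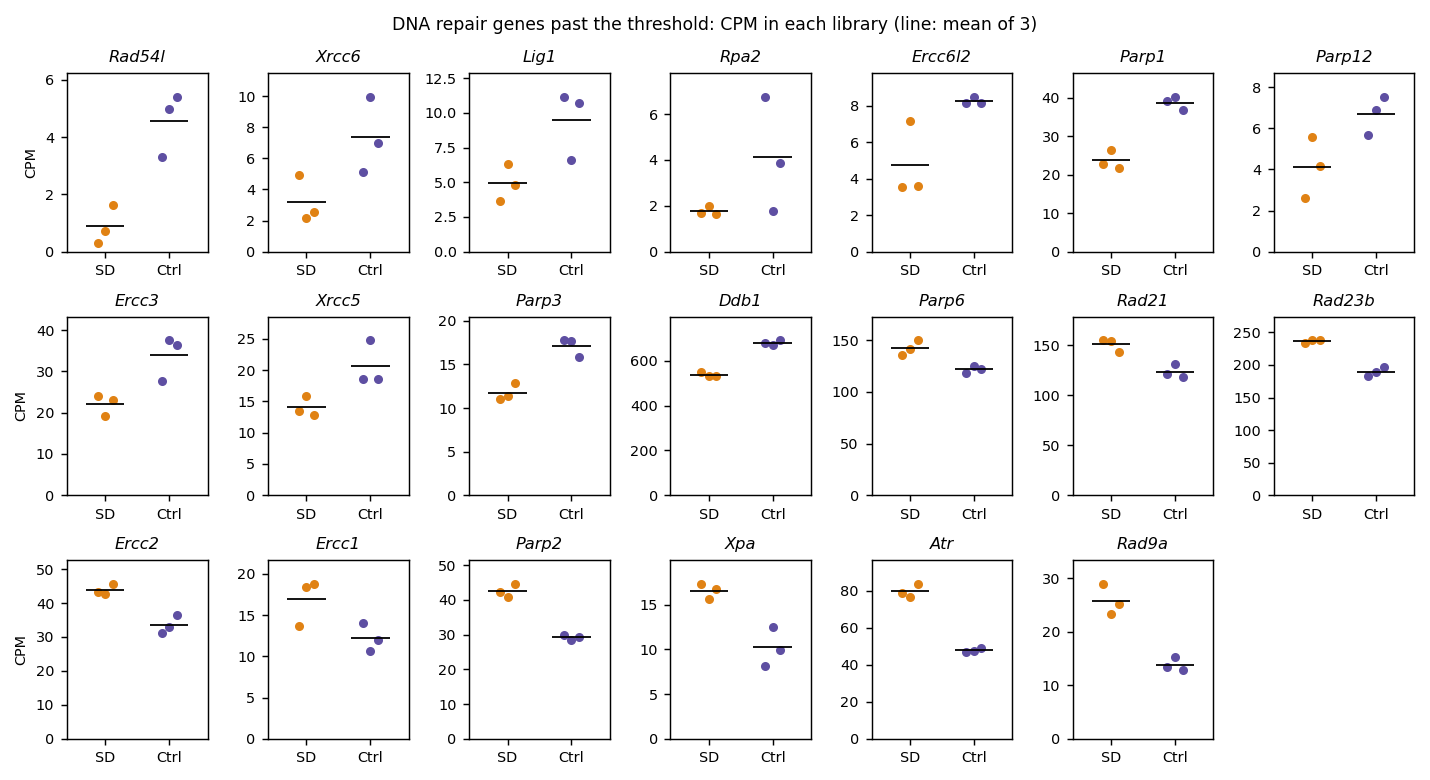
The CPM of 20 of the 21 called repair genes is plotted by library, SD at the left and Ctrl at the right of each panel, with a line at the mean of 3 libraries and each axis starting at 0; genes run from the lowest to the highest log2 fold change. The groups overlap in 2 panels, Rpa2 and Ercc1, and in the other 18 they do not.

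Checkpoint signalling held the 2 repair genes with the largest rises. Rad9a, a subunit of the 9-1-1 clamp that marks damaged DNA for ATR, rose 1.86-fold, with 29.0, 23.2 and 25.3 CPM in SD and 13.4, 15.4 and 12.8 CPM in Ctrl (log2 fold change 0.85 ± 0.15, SE, limma adjusted p = 9.8e-06). Atr (chromosome 9, 95857597 to 95951781), the kinase of replication stress, rose 1.67-fold, with 79.1, 76.5 and 84.0 CPM in SD and 46.9, 47.5 and 49.3 CPM in Ctrl (log2 fold change 0.73 ± 0.09, SE, limma adjusted p = 3.9e-09). Neither gene's groups overlapped. Of the exon bases of Rad9a, 9.53% overlap Ppp1ca on the other strand.

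The rest of the checkpoint group was not called. Rad1, the partner of RAD9A in the clamp, was at 8.58 ± 1.76 CPM in SD and 8.31 ± 0.461 CPM in Ctrl (SD, n = 3 each; limma adjusted p = 0.93). The ratio of Rad9a to Rad1 was 3.86, 3.06 and 2.38 in SD and 1.64, 1.93 and 1.45 in Ctrl (exact two-sided permutation p = 0.10; p = 0.11 adjusted over the 8 ratios). Rad17, which loads the clamp, had 13.4, 14.8 and 11.4 CPM in SD and 11.6, 11.3 and 13.1 CPM in Ctrl. Chek1, the effector kinase of ATR, had 1.997, 2.87 and 1.79 CPM in SD and 2.21, 1.21 and 2.14 CPM in Ctrl, with overlapping groups (limma adjusted p = 0.63).

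Atm, the kinase of double-strand breaks, had 6.30, 8.47 and 5.53 CPM in SD and 11.3, 11.1 and 7.41 CPM in Ctrl (log2 fold change -0.49 ± 0.22, SE, limma adjusted p = 0.058). The groups overlapped, because Ctrl replicate 3 was below SD replicate 2. Without either of these libraries Atm was called lower (limma adjusted p = 0.024 for each). Chek2, its effector kinase, had 1.08, 1.72 and 1.79 CPM in SD and 3.17, 2.43 and 3.13 CPM in Ctrl, all SD libraries below all Ctrl libraries, and was not called (log2 fold change -0.64 ± 0.29, SE, limma adjusted p = 0.060). The ratio of Atr to Atm was 12.6, 9.03 and 15.2 in SD and 4.15, 4.29 and 6.65 in Ctrl (exact two-sided permutation p = 0.10; p = 0.11 adjusted over the 8 ratios).

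**Figure D3:**
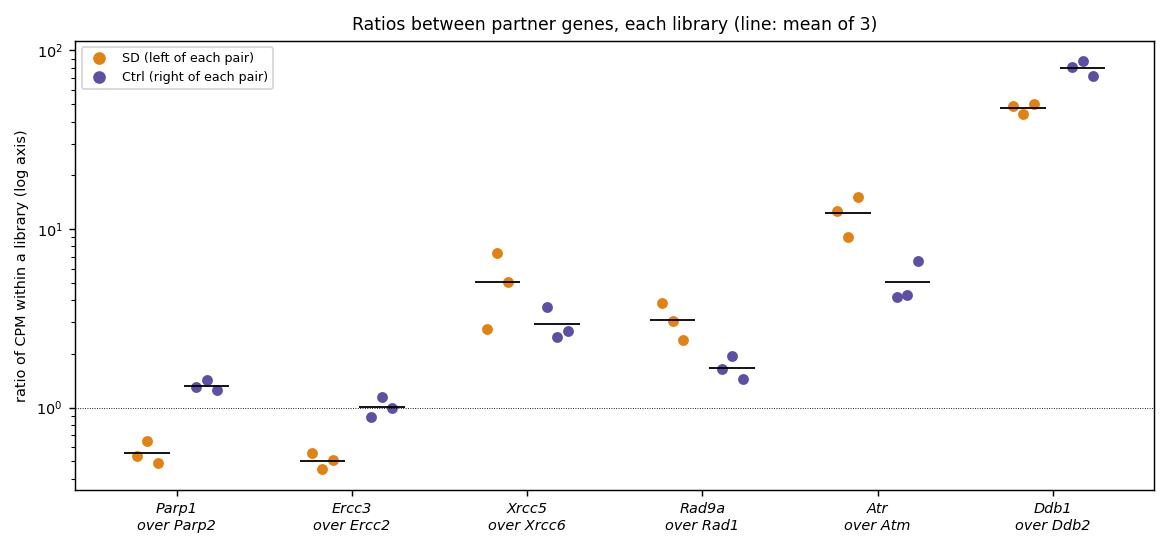
For 6 pairs of partner genes the ratio of their CPM within a library is plotted on a log axis, SD at the left and Ctrl at the right of each pair, with a line at the mean of 3 libraries. The groups do not overlap for 5 pairs, and for Xrcc5 over Xrcc6 they do.

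The ratio of Xrcc5 to Xrcc6 was 2.75, 7.33 and 5.06 in SD and 3.65, 2.49 and 2.67 in Ctrl, with overlap (exact two-sided permutation p = 0.20, also after adjustment over the 8 ratios). The ratio of Ddb1 to Ddb2 was 48.6, 44.2 and 50 in SD and 80.5, 87.1 and 71.6 in Ctrl. These groups did not overlap (exact two-sided permutation p = 0.10; p = 0.11 adjusted over the 8 ratios). Ddb1 and Ddb2 each separated the groups, in opposite directions, which fixed this unadjusted p in advance.

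Of the 3 subunits of RPA, which coats single-stranded DNA during replication and repair, 1 was called. Of all tested genes 56.6% were called. Rpa2 had 1.69, 2.01 and 1.64 CPM in SD and 6.76, 1.75 and 3.85 CPM in Ctrl, and was called lower (log2 fold change -0.76 ± 0.31, SE, limma adjusted p = 0.036). Its groups overlapped and the Ctrl libraries spread widely, and without Ctrl replicate 1 the log2 fold change was -0.40 (limma adjusted p = 0.36). The call was also lost without Ctrl replicate 3, SD replicate 1 or SD replicate 3 (limma adjusted p = 0.093, 0.072 and 0.071). Rpa1 had 13.1, 14.5 and 17.04 CPM in SD and 19.7, 15.6 and 17.8 CPM in Ctrl, and Rpa3 had 3.38, 2.44 and 2.99 CPM in SD and 1.79, 2.56 and 2.42 CPM in Ctrl. Neither was called (limma adjusted p = 0.21 and 0.42).

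None of the 6 mismatch repair genes was called by limma (0%, against 56.6% of all tested genes). By edgeR and by DESeq2 0 of 6 were called as well, with 0 under an unadjusted p of 0.05 in each. Msh6, a subunit of the main mismatch sensor, was at 29.4 ± 4.04 CPM in SD and at 26.3 ± 2.03 CPM in Ctrl (SD, n = 3 each). Msh3, Mlh3 and Pms2 had log2 fold changes of -0.40, -0.49 and -0.18. The 4 Fanconi anaemia genes of the symbol rule act on DNA crosslinks. They were likewise not called by limma, DESeq2 or edgeR, which tested 3 of them, with 0 under an unadjusted p of 0.05 in each. Fanci was at 6.49 ± 2.51 CPM in SD and 5.59 ± 1.62 CPM in Ctrl, and Fancl, Fancm and Fancg averaged under 4 CPM in both groups. Fancm had a log2 fold change of -0.64 (limma adjusted p = 0.099) on 10, 2 and 3 reads in SD. Ube2t, a gene of this pathway outside the rule, was called lower (2.27-fold, log2 fold change -0.91, limma adjusted p = 0.0069).

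**Figure D4:**
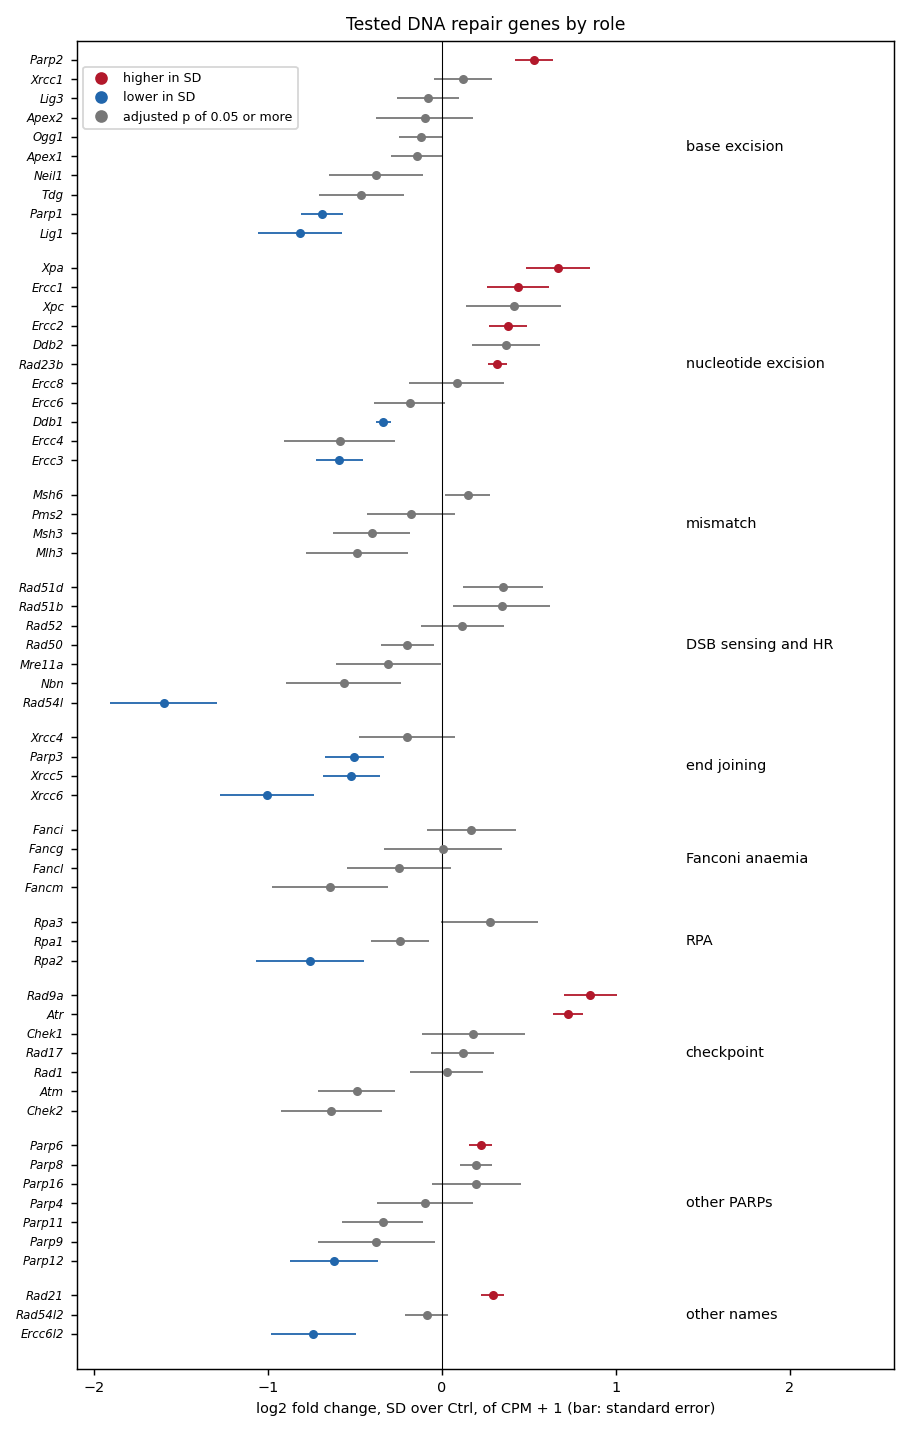
The log2 fold change of 60 of the 64 tested repair genes, SD over Ctrl, on the scale of CPM + 1, is plotted with its standard error, grouped by role and coloured by call. Among the genes of the symbol rule, end joining genes all lie below 0, and mismatch repair and Fanconi anaemia genes hold no called gene.

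Among 7 tested ADP-ribosyltransferases outside core strand break repair, Parp6 rose and Parp12 fell; both encode enzymes that attach single ADP-ribose units. Parp6 had 135, 142 and 150 CPM in SD and 118, 125 and 122 CPM in Ctrl (1.17-fold higher, limma adjusted p = 0.0042). Parp12 had 2.61, 5.60 and 4.18 CPM in SD and 5.66, 6.88 and 7.55 CPM in Ctrl, almost touching (1.62-fold lower, limma adjusted p = 0.036). Its call was lost with edgeR (adjusted p = 0.051), with DESeq2 (adjusted p = 0.086) and without SD replicate 1, Ctrl replicate 2 or Ctrl replicate 3 (limma adjusted p = 0.21, 0.086 and 0.13). The other 5, Parp4, Parp8, Parp9, Parp11 and Parp16, were not called.

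Of 3 genes of the symbol rule that were placed in no pathway group here, Rad21, a cohesin subunit, rose, with 155, 154 and 144 CPM in SD and 121, 131 and 118 CPM in Ctrl (1.22-fold higher, limma adjusted p = 0.00027). Ercc6l2, a helicase-like protein, fell, with 3.53, 7.17 and 3.59 CPM in SD and 8.14, 8.49 and 8.12 CPM in Ctrl (1.73-fold lower, limma adjusted p = 0.0096). SD replicate 2 of Ercc6l2 stood apart from the other 2 SD libraries, and without SD replicate 1 the adjusted p was 0.051 by limma. Rad54l2 was not called (log2 fold change -0.09).

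Repair and checkpoint genes that the symbol rule does not reach, from a list of 104 and another of 24, gave the neighbourhood. Of 67 tested other repair genes 6 were higher and 16 lower in SD, and 45 were not called (32.8% called, median log2 fold change -0.11). Of all tested genes 56.6% were called. The risers were Xab2, a partner of XPA (192 ± 13.5 CPM in SD, 117 ± 8.40 CPM in Ctrl; SD, n = 3 each; limma adjusted p = 1.0e-11), Cetn2, a partner of XPC (139 ± 2.48 and 88.1 ± 7.34 CPM; limma adjusted p = 5.0e-10), Rmi1, Rev3l, Mnat1 and Uimc1. Those that fell included 4 of the 5 clamp loader subunits, Rfc1, Rfc3, Rfc4 and Rfc5, the clamp itself, Pcna, the flap nuclease Fen1, the polymerase epsilon subunits Pole and Pole2, and H2afx, the histone phosphorylated at breaks (285 ± 22.4 CPM in SD, 405 ± 32.4 CPM in Ctrl; SD, n = 3 each; limma adjusted p = 1.0e-09). Rfc4 and Fen1 fell 2.55-fold and 2.12-fold. Prkdc, the kinase that works with Ku, was at 6.06 ± 1.63 CPM in SD and 5.97 ± 1.38 CPM in Ctrl (SD, n = 3 each) and was not called.

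Of 15 tested other checkpoint genes 2 were higher, Tipin and Tlk2, 3 lower, Mapkapk2, Plk1 and Wee1, and 10 were not called. The called share was 33.3%, against 56.6% of all tested genes, and the median log2 fold change was -0.23. Mapkapk2, a stress kinase, was at 110 ± 3.04 CPM in SD and 200 ± 9.82 CPM in Ctrl (limma adjusted p = 1.2e-14), Tlk2, a chromatin kinase, at 164 ± 9.18 and 135 ± 4.34 CPM (limma adjusted p = 0.00037), and Plk1, a mitotic kinase, at 15.6 ± 1.80 and 24.9 ± 4.02 CPM (SD, n = 3 each; limma adjusted p = 0.00058). Of 19 tested p53 targets 4 were higher, 7 lower and 8 not called (57.9% called, against 56.6% of all tested genes, median -0.18). The 3 with the smallest p were Dram1, a lysosomal protein (26.6 ± 1.05 CPM in SD, 213 ± 17.8 CPM in Ctrl), Pltp, a phospholipid transfer protein (73.3 ± 3.21 and 22.7 ± 3.01 CPM), and Ccng1, cyclin G1 (24.2 ± 1.85 and 65.03 ± 5.38 CPM; SD, n = 3 each; limma adjusted p = 1.5e-27, 5.0e-16 and 6.2e-14). The 8 p53 targets not called had ratios from 0.50 for Zmat3 (limma adjusted p = 0.058) to 1.39 for Aen. Among them Mdm2, Bbc3, Gadd45a and Phlda3 had ratios of 0.93, 0.88, 1.11 and 1.12.

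**Figure D5:**
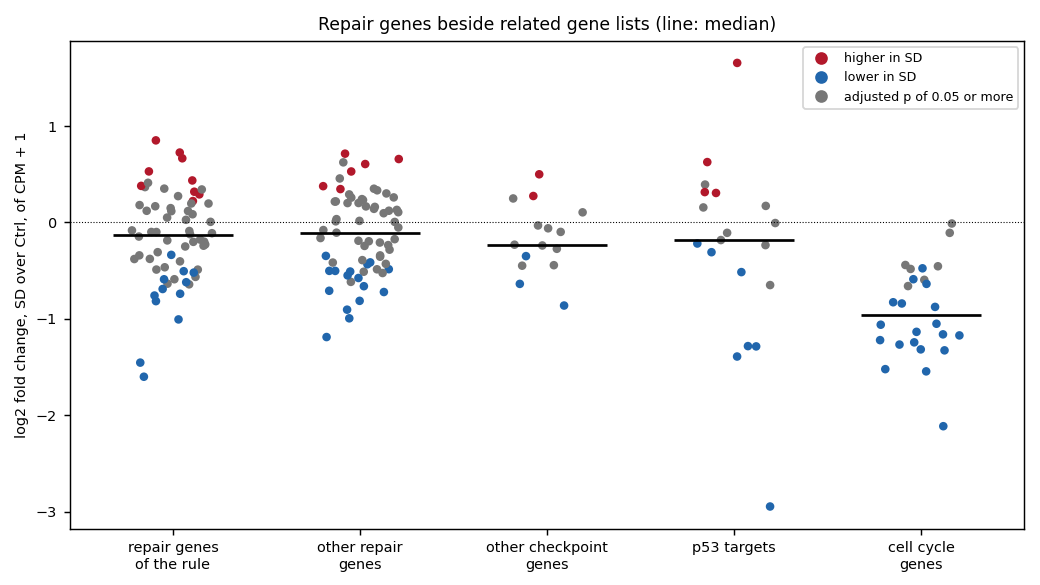
Each point is the log2 fold change, SD over Ctrl, of a tested gene in the repair genes of the symbol rule and in 4 related lists, coloured by call, with a line at the list's median. Medians were -0.13 for the repair genes, -0.11, -0.23 and -0.18 for other repair genes, other checkpoint genes and p53 targets, and -0.96 for cell cycle genes.

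Cell cycle genes were mostly lower in SD, among them Plk1, which is also counted among the other checkpoint genes. Of 26 tested genes of a list of 38, 0 rose, 19 fell and 7 were not called (median log2 fold change -0.96), and their summed level was 225 to 236 CPM in SD and 434 to 450 CPM in Ctrl. The share that fell was 73.1%, against 28.5% of all tested genes. Rrm1, Top2a and Mcm3 led the list, at 29.5 ± 2.56, 5.54 ± 1.001 and 11.9 ± 2.34 CPM in SD and 67.7 ± 4.55, 27.3 ± 4.21 and 31.1 ± 2.98 CPM in Ctrl (SD, n = 3 each; limma adjusted p = 1.8e-12, 2.0e-12 and 3.5e-09). Their part in the falls of the repair genes was not tested. In bulk tumour RNA, fewer cells of a type and less RNA per cell cannot be told apart.

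Cell type markers also differed between the groups, and their part in the repair results was not tested. Type 2 alveolar markers were lower in 8 of 8 tested genes, with summed levels of 1380 to 1450 CPM in SD and 4980 to 5490 CPM in Ctrl, and alveolar macrophage markers in 5 of 7, with 1 higher (106 to 113 and 351 to 362 CPM). Ciliated markers were higher in 13 of 13 (1530 to 1560 CPM in SD, 394 to 409 CPM in Ctrl), endothelial markers in 12 of 13 with 1 lower (3800 to 3930 and 1320 to 1380 CPM), and smooth muscle and pericyte markers in 9 of 13 with 2 lower (2010 to 2070 CPM in SD, about 1400 CPM in Ctrl). B cell markers were higher in 3 of 4 (56.5 to 65.3 and 18.8 to 22.8 CPM) and T cell markers in 4 of 6 (34.5 to 42.6 and 17.8 to 20.8 CPM). Over all tested genes 28.1% were called higher and 28.5% lower. No marker in the table was listed at 0, and many listed markers had no row. Rows were found for 8 of 15 type 2, 7 of 15 macrophage, 13 of 16 ciliated and 13 of 16 endothelial markers. They were also found for 13 of 13 smooth muscle and pericyte, 4 of 11 B cell and 7 of 14 T cell markers. The summed level of the 65 repair genes, of which Ddb1 alone made up the largest share, was 1890 to 1900 CPM in SD and 1930 to 1960 CPM in Ctrl.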

How the data were processed

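RNA of 3 SD and 3 Ctrl lung tumour libraries was measured. Per the labels' protocols, TRIzol RNA (1.5 ug) entered a NEBNext Ultra kit, with no strand setting stated. HISAT2 2.0.5, featureCounts 1.5.0-p3 and mm10 are named in the submitters' processing notes, without order or settings. The authors deposited CPM, reads scaled to a common total, per the file headers. No source states how genes were filtered. Values were whole multiples of 1 read for 99.8% of the table and all 390 values of the 65 repair genes, within 0.01 read.

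The repair genes, role groups, lists and tests were chosen with earlier results of these data known, and the 8 partner pairs after the values were seen. Gene IDs matched GENCODE M21 (GRCm38) for all 65, whose symbols equalled its names; exon lengths and overlaps come from it. limma 3.58.1 (R 4.3.3) was run with trend on log2(CPM + 1) over the 10004 genes that reached 1 CPM in 3 or more libraries, group as the only term. This scale understates changes of low genes. The fit was checked on simulated data. Alternatives were edgeR 4.0.16 and DESeq2 1.42.0 on recovered reads, pseudocounts, filters, scalings, a replicate block, leaving out the first 60 rows and leaving out each library. Genes named with values were those called, and Atm, Chek1, Chek2, Rad17, Xpc, Ddb2, Rpa1 and Rpa3; others stand beside a count. Of the other repair, other checkpoint, p53 target and cell cycle lists, the 3 genes with the smallest p have values, and cell type markers are given as counts and summed levels. Results of 4 repair genes, and 2 of the 8 ratios, are not reported here by name, though the counts include them. Promoters are RefSeq's on GRCm38.p6.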

Additional observations from a re-analysis of the deposited data

How the results depend on the processing

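Over 17 alternatives the count of called repair genes ran from 18 to 22, beside 21, with 8 to 10 higher and 9 to 13 lower, and all tested genes called ran from 5057 to 5685. The median log2 fold change of the repair genes was -0.089 among genes with a mean of at least 5 CPM, where 18 of 41 were called (43.9%, against 63.8% of all genes at that level), and -0.20 to -0.089 when 1 library was left out. The edgeR test on recovered reads called 20 of 63 (31.7%, against 57.8% of all genes it tested). DESeq2 called 20 of 65 (30.8%, against 51.4%). Of the 29 repair genes followed, none changed sign, and 16 of the 21 called ones kept their call in every alternative that tested them. The 3 called genes with a mean under 5 CPM, Rad54l and Rpa2 among them, were not tested under the filter of at least 5 CPM. Calls were lost in 13 of 174 gene-by-run results over the 6 leave-one-out runs and in 3 of 312 gene-by-setting results elsewhere, for Ercc1, Rpa2, Parp12, Xrcc5 and Ercc6l2; Rpa2 was also lost with a pseudocount of 0.1 (adjusted p = 0.058). Atm was gained in 2 of the 6 leave-one-out runs. The cause was not tested. With the replicate block 21 repair genes were called, as without it; the numbers did not pair the libraries (correlations of deviations -0.0074, -0.019 and 0.012). In 12 repair genes at least 1 library held under 10 reads.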
